A study of Mus musculus with 8 samples.

Results

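The 750 autosomal CpGs of highest read coverage in a set of oxidative reduced representation bisulfite libraries (oxRRBS) of mouse neural precursor cells (NPCs) are described here. CpGs were ranked by their mean coverage over the 8 libraries, with ties broken by chromosome and base, and the 750 highest of 743279 autosomal CpGs (0.101%) were taken. Coverage is the number of C or T calls at a CpG. The members were chosen by coverage, so their coverage is given as a description, and their methylation levels played no part in the choice. The lowest members had mean coverages of 390.75 and 391.375, and the highest CpGs left out had 390.25 and 390.125. The median over all autosomal CpGs was 49.5, and the highest member reached 128905.5. A further 41 CpGs of the sex chromosomes, 40 on X and 1 on Y, were covered at least as deeply as the lowest member and were left out by the autosomal rule. Members at most 1 kb apart were joined, which gave 108 loci, of which 33 held 1 CpG and 12 held at least 10.

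NPCs came from clones of A2lox.cre mouse ES cells that carry a doxycycline-inducible shRNA, either a non-targeting Scrambled control (shScr) or one against Tet3 (shTet3), an enzyme that oxidises 5mC to 5hmC. All cells, controls included, received 2 µg/ml of doxycycline for 5 days. Each of 2 replicates per shRNA had a BS library, where 5mC and 5hmC both read as C, and an oxBS library, where only 5mC does. BS and oxBS libraries of one shRNA and number were taken to come from the same DNA, which the labels do not state. The labels do not say whether the replicates were separate cultures, so p-values measure only the spread between these samples, and with 2 libraries against 2 an exact permutation test cannot give less than 0.333. The level of Tet3 RNA cannot be read from methylation calls and was not checked here. The libraries held 42516767 to 61865967 calls with a median coverage of 43 to 54, and every member had at least 132 calls in every library. No molecular identifiers are named in the methods, so reads may be copies of a molecule and tests on calls cover counting error alone.

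In reduced representation libraries the genome is cut at CCGG by MspI, which enriches CpG-rich promoters. Some sequences are present in very many copies in the mouse genome but in few in its assembly. The ribosomal RNA genes lie in tandem arrays on several chromosomes, and only a share of their copies is transcribed. Major satellite repeats are AT-rich tandem arrays beside the centromeres, and are usually heavily methylated. Reads from all copies of such a sequence can be placed on the few copies that the assembly holds, so that a level there averages over many genomic copies.

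The loci were sorted by sequence into 4 groups. The ribosomal group held 2 loci, the satellite group 20, other repeated loci 23 and single-match loci 63. In the last group, the window searched had no second match in mm9 of at least 150 bases at 80% identity or more. For each locus this was 1 window of 201 bases around its deepest member. Copies of the rest of a locus were not searched for, so a single match does not show that a locus is unique. The groups were named from matches in mm9, a tandem period and neighbouring RefSeq genes, with no consensus sequence to compare, and the number of genomic copies was not tested. In the mm9 annotation, 0 of the 108 loci lay within 10 kb of a gene of rRNA type. None lay that near to a gene named Rn45s, Rn18s, Rn28s1, Rn5s or Rn5-8s. The sequence searched for the largest ribosomal locus had 1 match at 80% identity, its own. Another part of that locus was 96.7% identical to the other ribosomal locus over 333 bases. Ribosomal and satellite loci held 65.1% and 28.5% of all member calls, but were not most of the loci. Single-match loci held 4.01% of member calls and other repeated loci 2.36%. Of the 108 loci, 43 (39.8%) had at least 2 matches in mm9, against 40 of 495 evenly spaced other CpGs (8.08%). At 95% identity these counts were 38 loci (35.2%) and 14 CpGs (2.83%). Of the members, 10.3% had a second exact copy of their 75 bases after turning C to T, against 1.34% of 9901 other CpGs. All 750 members were the C of a CG in mm9.

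The windows below show the sequences that hold most of the calls, each 201 bases of the plus strand of mm9 centred on the deepest member of its locus, with the member CpGs in capitals. The first pair are ribosomal and the next 3 are satellite. The last 3 are a single-match locus at Sfi1 and Drg1, the locus of at least 2 members that fell most in shTet3, and a single-match promoter.
Ribosomal, chr17:39983554-39983754: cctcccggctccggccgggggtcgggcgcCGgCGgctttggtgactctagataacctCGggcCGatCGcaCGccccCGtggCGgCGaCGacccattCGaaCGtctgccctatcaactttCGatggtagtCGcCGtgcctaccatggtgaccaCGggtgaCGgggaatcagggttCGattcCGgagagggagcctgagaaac
Ribosomal, chr6:3151395-3151595: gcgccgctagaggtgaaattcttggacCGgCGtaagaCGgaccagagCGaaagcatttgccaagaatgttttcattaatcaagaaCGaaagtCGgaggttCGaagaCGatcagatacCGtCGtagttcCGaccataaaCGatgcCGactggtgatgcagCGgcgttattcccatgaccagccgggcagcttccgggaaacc
Satellite, chr2:98507206-98507406: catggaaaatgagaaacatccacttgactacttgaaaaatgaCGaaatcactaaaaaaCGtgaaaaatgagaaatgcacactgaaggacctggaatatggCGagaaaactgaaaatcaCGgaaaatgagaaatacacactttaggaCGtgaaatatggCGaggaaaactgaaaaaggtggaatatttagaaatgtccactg
Satellite, chr2:98502352-98502552: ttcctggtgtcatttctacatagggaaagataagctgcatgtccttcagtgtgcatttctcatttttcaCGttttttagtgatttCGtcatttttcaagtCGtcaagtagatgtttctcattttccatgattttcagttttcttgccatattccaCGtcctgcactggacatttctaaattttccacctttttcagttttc
Satellite, chr9:35112919-35113119: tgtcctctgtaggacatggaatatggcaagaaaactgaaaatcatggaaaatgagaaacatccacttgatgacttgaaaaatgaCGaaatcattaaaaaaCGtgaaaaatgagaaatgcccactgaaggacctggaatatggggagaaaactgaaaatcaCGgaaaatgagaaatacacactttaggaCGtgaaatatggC
Sfi1 and Drg1, chr11:3093461-3093661: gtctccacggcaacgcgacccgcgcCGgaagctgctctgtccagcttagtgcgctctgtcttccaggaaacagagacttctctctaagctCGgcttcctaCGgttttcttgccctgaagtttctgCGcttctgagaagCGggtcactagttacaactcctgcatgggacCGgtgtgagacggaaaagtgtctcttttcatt
Near Raet1d, chr10:22101544-22101744: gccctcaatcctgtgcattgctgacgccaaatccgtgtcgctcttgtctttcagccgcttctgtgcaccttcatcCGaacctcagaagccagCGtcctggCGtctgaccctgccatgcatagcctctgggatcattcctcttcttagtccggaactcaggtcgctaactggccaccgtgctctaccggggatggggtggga
2510012J08Rik, chr10:80784075-80784275: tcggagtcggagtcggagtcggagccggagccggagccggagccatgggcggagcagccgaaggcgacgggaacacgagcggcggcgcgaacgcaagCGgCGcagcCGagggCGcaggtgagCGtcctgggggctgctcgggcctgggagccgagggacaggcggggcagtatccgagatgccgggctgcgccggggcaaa

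The ribosomal and satellite windows differ in base composition. GC content was 65.7% and 52.7% in the ribosomal windows and 36.3%, 36.3% and 36.8% in the satellite windows. No CCGG lay in the 3 satellite windows, while the ribosomal windows held 5 and 3. Fewer members than other CpGs lay in promoters. Of the 750 members 30.4% lay in a promoter (from 1000 bases before to 500 after a start in GENCODE vM1), against 78.5% of the 750 CpGs next in coverage and 47.5% of all other autosomal CpGs. Of the 63 single-match loci 57 lay in a promoter, of the 23 other repeated loci 3, and of the ribosomal loci 0. Of the 20 satellite loci, 9 touched the promoter of a predicted gene model.

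The weight of the members in each library was large for 0.101% of the CpGs. They held 3.90% and 6.65% of all calls in the shScr BS libraries (replicates 1 and 2), and 4.12% and 6.92% in the shScr oxBS libraries. In shTet3 they held 4.86% and 6.72% of the BS calls and 4.81% and 7.11% of the oxBS calls. Replicate 2 was higher in each of the 4 groups, and the ranges of shScr and shTet3 overlapped. The 4 loci with the most calls held 89.4% of the 22433277 member calls, and the 20 with the most held 96.0%.

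**Figure D1:**
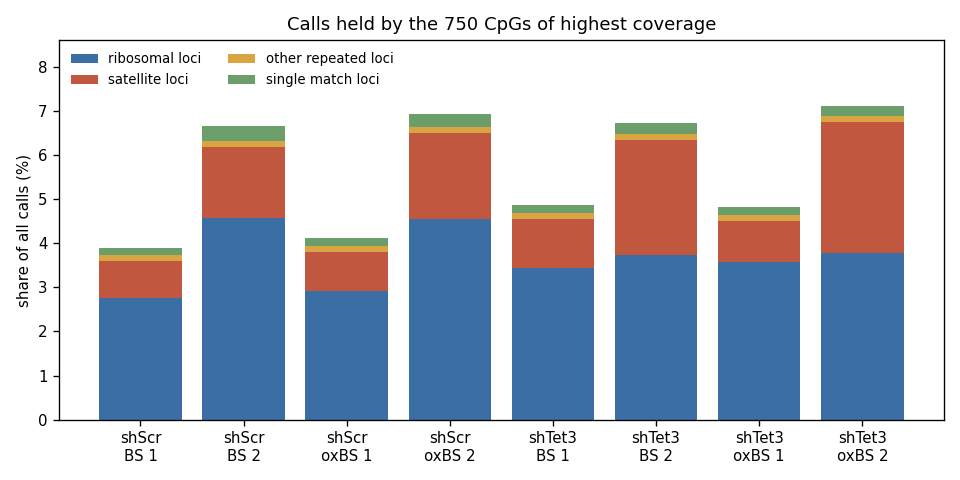
Share of all calls (%) held by the 750 CpGs in each of the 8 libraries, stacked by sequence group. The ribosomal (blue) and satellite (red) loci make up nearly all of each bar, and the replicate 2 bars reach 6.65% to 7.11% against 3.90% to 4.86% for replicate 1.

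The ribosomal and satellite shares did not move alike. Ribosomal loci held 2.75% and 4.58% of the shScr BS calls and 2.93% and 4.55% of the shScr oxBS calls. In shTet3 the replicates were closer, with 3.43% and 3.72% in BS and 3.57% and 3.78% in oxBS. Satellite loci differed more between replicates, with 0.837% and 1.60% in shScr BS, 0.868% and 1.95% in shScr oxBS, 1.12% and 2.62% in shTet3 BS and 0.936% and 2.97% in shTet3 oxBS. In shTet3 oxBS the share of calls of 19 of 20 satellite loci was higher in replicate 2, with a median ratio of 3.25. The highest library was shTet3 oxBS replicate 2 for 19 of the 20 satellite loci, and shScr BS replicate 2 for 45 of the 63 single-match loci. The oxBS and BS libraries of the same DNA deviated together in coverage, with correlations of the log2 difference between replicates over the 750 members of 0.812 in both shRNAs. These points share libraries and neighbouring CpGs.

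The largest ribosomal locus, chr17:39979959-39985654, held 328 members and 13656990 calls. It overlaps AY036118 (ENSMUSG00000045999), a pseudogene at chr17:39985048-39985772 on the minus strand, and 42 of its members lie in an annotated exon. The RefSeq table, built on GRCm38.p6, places Rn18s-rs5, a ribosomal RNA pseudogene, beside AY036118 on the same chromosome. The 5mC level of the locus was 7.41% and 3.68% in the shScr oxBS libraries and 4.56% and 3.44% in the shTet3 oxBS libraries. In BS, shScr had 7.35% and 3.58%, and shTet3 had 4.46% and 3.32%. The groups overlapped in both library types, because replicate 2 of shScr lay among the shTet3 values. Over the 328 members, 314 were lower in shScr replicate 2 than in replicate 1 in oxBS and 309 in BS, and in shTet3 286 and 283 were. Most ribosomal members were low: 305 of the 328 had a mean level over the libraries below 10%, with a range of 0.674% to 17.2% and a median of 3.82%.

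**Figure D2:**
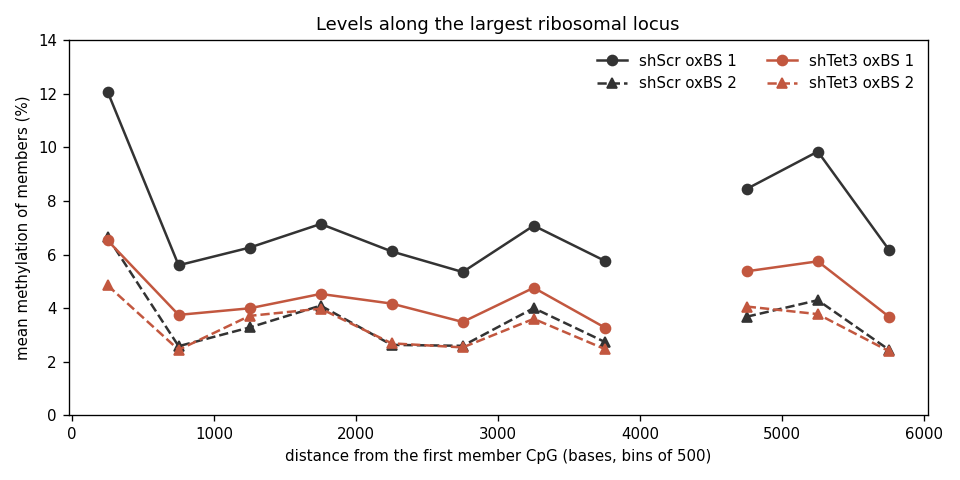
Mean methylation (%) of the members of the largest ribosomal locus in bins of 500 bases against distance from its first member, in the 4 oxBS libraries. The shScr replicate 1 line lies above the other 3 in every bin, and no member falls in the bin where the lines break.

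The level along the locus was highest in its first 500 bases, with 12.1% in shScr oxBS replicate 1, 6.66% in shScr replicate 2, 6.53% in shTet3 replicate 1 and 4.85% in shTet3 replicate 2. In the last bin the same libraries had 6.19%, 2.46%, 3.69% and 2.40%. The first bin held 40 members and the last 18.

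The other ribosomal locus, chr6:3151422-3151554, was 96.7% identical to the first over 333 bases and held 14 members and 953601 calls. The nearest gene in the annotation is Samd9l, 170703 bases away. Its members fell into a deep stretch and a shallow one. The 8 members of the deep stretch had mean coverages of 12749 to 14992, and the 6 that follow had 424 to 1247. In the deep stretch oxBS gave 7.64% and 3.15% for shScr, against 4.23% and 2.81% for shTet3. In the shallow stretch oxBS gave 32.5% and 8.95% for shScr, against 20.1% and 12.6% for shTet3. Levels were higher toward the end of the shallow stretch, and shScr replicate 1 was the highest oxBS library at every member of it.

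**Figure D3:**
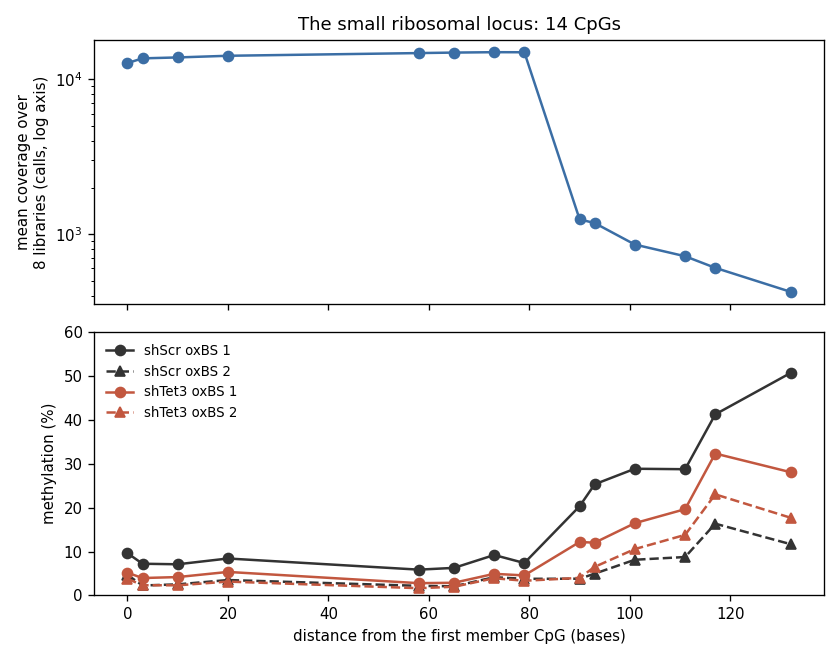
Mean coverage over the 8 libraries (calls, log axis) above, and methylation (%) in the 4 oxBS libraries below, for the 14 members of the small ribosomal locus against distance in bases from the first member. Coverage drops from 14976 to 1247 between neighbouring members, and levels rise after the drop.

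The satellite group was named for the sequence of its loci, each at least 75% identical over at least 100 bases to another locus of the group. A period of 234 bases was found at 7 of its 20 loci, all on chromosome 9, where the predicted genes Gm16869 and its neighbours are annotated. The same period was found at 1 other repeated locus, in Flg2. The satellite locus with the most calls, at Gm10800, had no period at the limit of 70% identity (50.5% at best). The window searched for the satellite locus at chr13:77578201 had 1 match in mm9, its own. The median GC content of the loci was 35.6%. At 15 of them CCGG was not found within 2 kb on both sides. Most satellite members were highly methylated: 107 of the 111 had a mean level above 50%, with a median of 78.7% and a range of 24.5% to 87.3%.

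The deepest satellite locus, chr2:98506419-98507482, held 27 members and 4897122 calls and overlaps Gm10800, a predicted gene with 19 of these members in its exons. Its oxBS level was 78.9% and 83.4% in shScr and 74.1% and 74.8% in shTet3. Its BS level was 77.8% and 82.3% in shScr and 73.9% and 74.9% in shTet3. Both shTet3 libraries lay below both shScr libraries in oxBS and in BS, with differences of −6.74 and −5.64 percentage points. The locus at Gm10801, chr2:98502421-98503083, with 18 members, had 71.7% and 80.3% in shScr oxBS and 68.0% and 71.7% in shTet3 oxBS. There the groups met in oxBS without overlapping, and overlapped in BS. At chr9:35112827-35113119, whose nearest gene is Gm5614 at 23407 bases, the oxBS level was 78.9% and 83.9% in shScr, against 75.3% and 76.7% in shTet3.

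The smaller satellite loci varied in the same range. The locus at chr2:98505220-98505349, 980 bases from Gm10801, had 63.1% and 76.5% in shScr oxBS and 64.9% in both shTet3 oxBS libraries, so that the groups overlapped. At chr9:3028786-3029855, in Gm16869, the values were 75.2% and 82.2% against 70.7% and 73.1%. At chr9:3000353-3000633 in the same gene they were 71.1% and 79.7% against 71.5% and 72.5%, and at chr12:3109911-3110026 they were 79.8% and 86.1% against 77.7% and 80.7%. In all of these shScr replicate 2 was the highest oxBS library.

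Among other repeated loci the levels were spread from 0.0988% to 91.7% over the 106 members, 75 of them below 10% and 18 above 50%. The locus in Fcgr3, an Fc receptor gene, lies in an intron at chr1:172994124-172994202 and had 14.7% and 23.9% in shScr oxBS and 17.9% and 18.6% in shTet3 oxBS. A locus inside Sfi1, which encodes a centrosome protein and has several copies in mouse, at chr11:3050559-3050643, was methylated at 87.2% and 94.0% in shScr and at 80.7% and 80.5% in shTet3. The exonic loci at 2610005L07Rik (chr8:20019855-20019935) and Gm10060 (chr8:19785075-19785157) had 0.489% and 4.90%, and 6.66% and 12.8%, in the shScr oxBS libraries. The shTet3 values were 1.84% and 3.26%, and 6.94% and 8.56%. The intergenic loci at chr19:61275637-61275696 and chr8:15519895-15519958 lay 15779 bases from Gm6020 and 101250 bases from AC122806.1. They had 3.94% and 5.66%, and 16.1% and 4.32%, in shScr oxBS, and 6.40% and 6.10%, and 9.06% and 3.76%, in shTet3 oxBS.

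Most single-match members were nearly unmethylated. Of their 191 members 168 had a mean level below 1% and none was above 50%. The promoter of 2510012J08Rik (chr10:80783679-80784197, 10 members) had 0.172% and 0.146% in shScr oxBS and 0.177% and 0.138% in shTet3 oxBS. The exonic locus at Zfp771, a zinc finger gene (chr7:134397757-134397795, 10 members), had 0% and 0.196% against 0.167% and 0.160%, in the same order. The locus 3006 bases from Gm11668 (chr11:108873101-108873325) had 7.22% and 3.01% against 3.59% and 3.07%, again with shScr replicate 1 above the other libraries.

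The most methylated single-match locus was chr11:3093351-3093630, where Sfi1 and Drg1, a GTP-binding protein gene, meet. Its 10 members had 209691 calls. The oxBS level was 10.8% and 32.9% in shScr and 19.0% and 13.7% in shTet3, and the BS levels of the same DNA were 11.02% and 33.1%, and 19.05% and 13.3%. The oxBS and BS libraries of each DNA sample gave nearly the same level, while the shScr replicates differed by more than the shRNAs did.

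**Figure D4:**
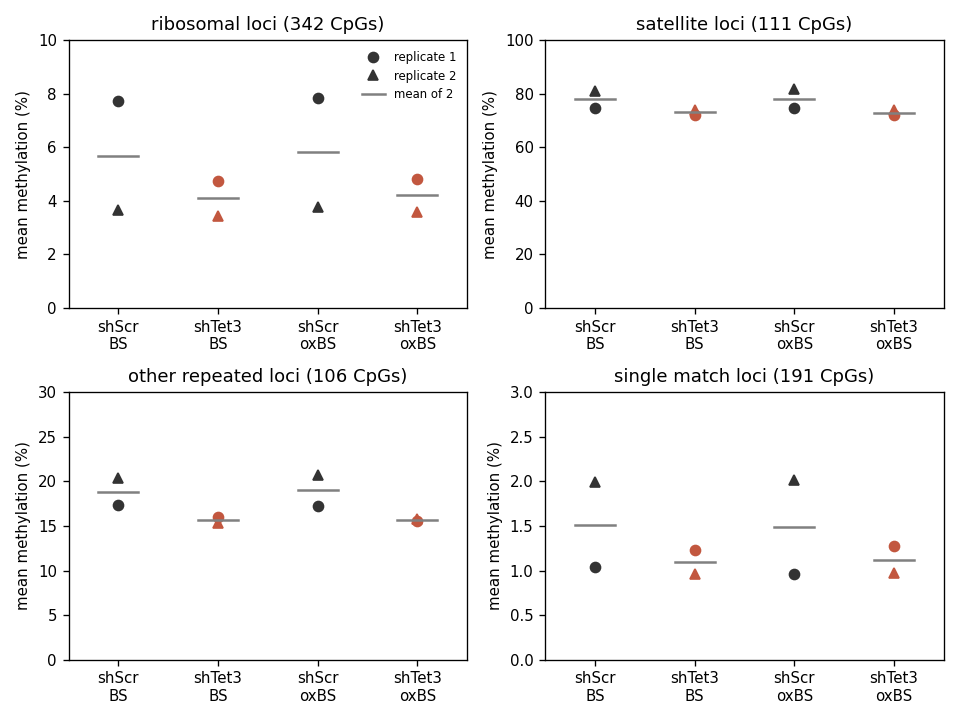
Mean methylation (%) of the members in each library by sequence group, with circles for replicate 1, triangles for replicate 2, shScr in black, shTet3 in red and grey bars for the mean of 2 libraries. The shTet3 values lie below both shScr values at satellite and other repeated loci, and overlap the shScr values at ribosomal and single-match loci.

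The comparison of shTet3 with shScr asks whether 5mC changed on Tet3 knockdown. Averaged over the 750 members, the 5mC level was 17.3% ± 0.0487 (SD, n = 2) in shScr and 15.2% ± 0.255 in shTet3, a difference of −2.07 percentage points. Both shTet3 libraries (15.4% and 15.03%) lay below both shScr libraries (17.3% and 17.2%), and the exact permutation test gave p = 0.333, the smallest possible. The SD of the shScr mean over all members is small because shifts between replicates went opposite ways in the sequence groups. From replicate 1 to 2 of shScr oxBS, ribosomal loci fell from 7.85% to 3.76%. Satellite loci rose from 74.7% to 81.6%, other repeated loci from 17.2% to 20.7% and single-match loci from 0.961% to 2.01%. In BS, shScr had 17.2% ± 0.150 (SD, n = 2) against 15.2% ± 0.308 for shTet3, which differs by −1.999 points with the same exact permutation p of 0.333. The read-weighted level of the members was 22.5% and 26.3% in the shScr oxBS libraries, and 18.4% (replicate 1) and 33.9% (replicate 2) for shTet3. In BS it was 22.6% and 23.1% for shScr, against 20.8% and 32.05% for shTet3, so that the groups overlapped in both. The mean difference was +1.70 points in oxBS and +3.55 points in BS, and without replicate 2 of shTet3 it was −6.04 and −2.09 points. Without replicate 1 of shScr the oxBS difference was −0.206 points. The satellite loci, the most methylated group, held their largest shares of calls in replicate 2 of shTet3. By sequence group, the unweighted oxBS difference was −5.23 points at satellite loci, −3.34 at other repeated loci, −1.60 at ribosomal loci and −0.364 at single-match loci. Satellite loci had 74.7% and 81.6% in shScr oxBS against 72.1% and 73.8% in shTet3 oxBS. Other repeated loci had 17.2% and 20.7% against 15.5% and 15.7%. In both groups the shScr replicates lay further apart than the mean difference between shRNAs. Both shTet3 oxBS libraries lay below both shScr libraries at the satellite and other repeated groups and not at the other groups. The other autosomal CpGs had 27.1% and 32.2% in shScr oxBS and 22.5% and 22.9% in shTet3 oxBS. The difference of the members was 4.87 points less negative than that of these CpGs, and the libraries of the groups did not overlap (exact permutation test, p = 0.333). It was 2.28 points without replicate 2 of shScr and 7.45 points without replicate 1. The members and the other CpGs were not matched for level, and the shScr level of the members was lower. Mean levels were below 10% at 314 of 342 ribosomal and 182 of 191 single-match members, which leaves little room for a fall.

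Of the 108 loci, 21 had both shTet3 oxBS libraries below both shScr libraries and 6 had both above. Over all loci of autosomal CpGs joined in the same way, 60% were below and 1.38% above. In BS 26 of the 108 were below and 6 above, against 60.1% and 1.35% of all loci. The sets of loci were not matched for level or number of CpGs. Of the 108 loci 63 were single-match, where 168 of 191 members had mean levels below 1%. Of the 21 lower loci in oxBS, 11 were other repeated loci, 8 satellite loci and 2 single-match loci. By CpG, 145 of the 750 members lay below and 37 above in oxBS, against 25.4% and 2.1% of autosomal CpGs, and in BS 147 and 16, against 25.8% and 2.01%.

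**Figure D5:**
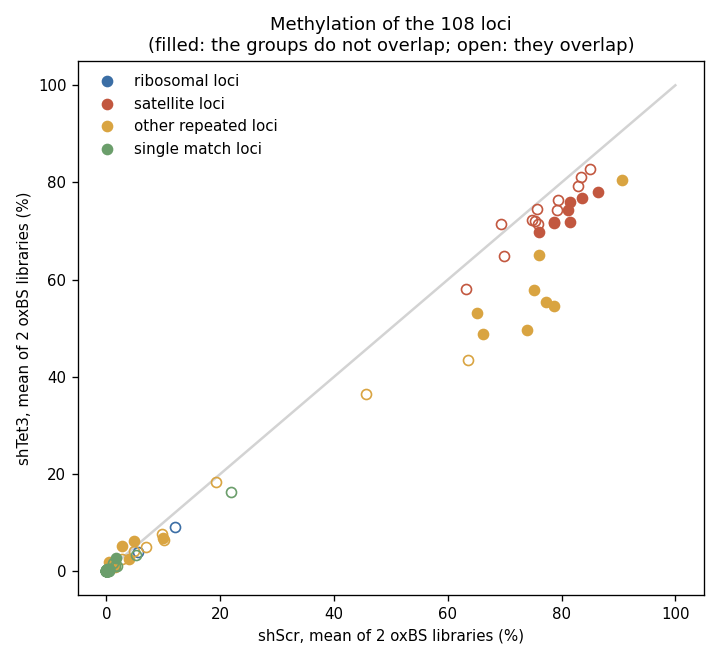
Mean oxBS methylation (%) of the 108 loci in shTet3 against shScr, each the mean of 2 libraries, with filled points where the groups do not overlap. The 8 filled satellite loci and most of the filled other repeated loci below the line of equal levels lie at shScr levels of 65.1% to 90.6%.

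The largest separated falls among loci of at least 2 members were at other repeated loci. The locus near Raet1d (chr10:22101619-22101644, 3 members, 7674 bases away), a gene for a ligand of a natural killer cell receptor, had 71.7% and 85.7% in shScr oxBS and 54.8% and 54.2% in shTet3 oxBS, a difference of −24.2 points. In BS the difference there was −16.8 points. The locus at chr15:74917094-74917197, 21393 bases from Ly6c2, a gene for a surface protein of blood cells, had 59.3% and 71.0% against 49.8% and 56.6%, a difference of −11.9 points, while in BS the difference was −8.64 points and the groups overlapped. The third was the locus in Sfi1 given above, at −10.0 points in both library types. The largest separated rises were small. At chr12:20318434-20318459 and chr12:20202879-20202955, both far from Gm10479, the oxBS differences were +2.52 and +1.54 points, and near Gm6020 the difference was +1.45 points. In BS the rises were +0.771, +1.46 and +0.795 points in the same order, and only the second had groups that did not overlap.

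Each CpG was also tested on its calls with a logistic model and likelihood ratio test, and p-values were adjusted after Benjamini-Hochberg over all CpGs of all chromosomes. A CpG was called at q below 0.01 with a pooled difference over 10 percentage points. In oxBS 29 members (3.87%) were called lower in shTet3, against 13.9% of the 662455 CpGs tested, and 0 were called higher, against 0.0814%. In BS 26 members (3.47%) were called lower, against 13.8%, and 0 higher, against 0.0621%. Of the 34 members called lower in either, 21 were called in both. The oxBS calls lay in 15 loci, 14 of the calls in satellite loci, 14 in other repeated loci and 1 in the ribosomal locus. The single-match loci had no call, but 182 of their 191 members had mean levels below 10% over the libraries, as did 314 of the 342 ribosomal members, which leaves little or no room for a fall of 10 points. At an unadjusted p below 0.05, 334 members were lower in oxBS by the likelihood ratio test. Fisher's exact test gave 329 and an F test with overdispersion 17, and in BS the 3 tests gave 362, 352 and 16. In the same order of tests, 44, 42 and 6 members were higher in oxBS, and 38, 31 and 4 in BS. The shares of all CpGs at this limit were not counted.

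The called members named here were chosen after their values were seen. At chr2:98506660, in the locus of Gm10800, the pooled oxBS difference was −22.3 points, and at chr2:98502951 at Gm10801 it was −20.2 points. At chr8:19761208, 8972 bases from 4930467E23Rik, the difference was −24.3 points, the largest called fall. At chr11:3027217 in Pisd-ps1 it was −19.4 points. With the F test that estimates overdispersion between replicates, 0 of the 750 members were called in oxBS or BS, and 17 and 16 were lower at an unadjusted p below 0.05. Of the whole table the F test called 0 CpGs in oxBS and 1 in BS as lower, so its count over the members says nothing about them. With calls scaled down to the median coverage of each library 3 were called in oxBS and 2 in BS, against 63285 and 59532 CpGs of the whole table. For the counts that follow, which leave out 1 library, the shares of all CpGs were not counted. Without replicate 1 of shScr, 54 members were called lower in oxBS and 2 higher, and in BS 48 and 1, while without replicate 2 of shScr 7 were called higher in oxBS and 6 in BS. Without replicate 2 of shTet3, 4 were called higher in BS.

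The BS minus oxBS comparison asks whether 5hmC was seen. Over the members it was −0.109 points in shScr (17.2% against 17.3%) and −0.0385 points in shTet3 (15.2% against 15.2%). Between libraries of the same DNA it was −0.0374 and −0.181 points in shScr and −0.00067 and −0.0764 points in shTet3. The SD of these paired differences was 0.101 and 0.0535 points, while the SD between replicates of a library type reached 0.150 and 0.308 points. The exact permutation test, which ignores the shared DNA, gave p = 0.667 in each. Read-weighted, BS minus oxBS was −1.57 points in shScr and +0.284 points in shTet3. In shScr 0 members were called with BS above oxBS, against 0.33% of the CpGs tested, and 0 with BS below, against 0.17%. In shTet3 1 member was called above, against 0.0239%, and 0 below, against 0.0141%. The 1 call, at chr17:6480210 in Gm17692, had a pooled difference of 10.1 points and was not called by Fisher's exact test. At an unadjusted p below 0.05, 71 members had BS above and 109 below oxBS in shScr by the likelihood ratio test (63 and 100 by Fisher's exact test, 3 and 2 by the F test). In shTet3 43 members had BS above oxBS (35 and 8 by the other tests) and 73 below (59 and 7). The shares of all CpGs at this limit were not counted, nor were those with 1 library left out. Leaving out 1 library also leaves the replicates unequal between BS and oxBS, so that differences between replicates enter the comparison. Leaving out 1 shScr library gave up to 30 members with BS above oxBS, without oxBS replicate 2, and up to 27 below, without BS replicate 2.

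The members changed read-weighted means of the whole autosomal set. Such a mean divides all methylated calls by all calls. Its oxBS value was 25.6% and 22.9% in shScr, and in the shTet3 libraries 18.1% and 20.003%, and without the members it was 25.8%, 22.6%, 18.1% and 18.9%. The members thus moved it by −0.135, +0.260, +0.0137 and +1.07 points. In BS the shifts were −0.140 and +0.171 points in shScr and +0.0511 and +0.940 points in shTet3. Satellite loci alone raised the shTet3 oxBS replicate 2 value by 1.73 points, and ribosomal loci lowered it by 0.672 points. The read-weighted difference of shTet3 from shScr was −5.19 points in oxBS and −3.91 points in BS (exact permutation test, p = 0.333 each). Leaving out 1 library gave −6.56 to −3.81 points in oxBS. In BS it gave −1.26 points without replicate 1 of shScr and −6.57 points without replicate 2. The level was lower in both shTet3 libraries than in both shScr libraries in oxBS and in BS. Without the members the differences were −5.67 points in oxBS and −4.39 points in BS, and without the satellite loci alone −5.49 and −4.27 points.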

How the data were processed

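oxRRBS libraries of NPCs with the shScr or shTet3 shRNA were analysed, 2 replicates of each as BS and oxBS libraries. According to the submitters' processing notes and the methods, the authors trimmed the reads (Trim Galore, RRBS option), mapped them to mm9 (Bismark, bowtie2) and wrote tables in methylKit format. Tool versions are not given in the sources used here. Each deposited table lists, per CpG, the coverage as an unnormalized count of calls, and in percent how many of them were C or T. Percent times coverage gave whole methylated counts. No listed CpG fell below a coverage of 5 in any library, so a minimum of that size had been applied before deposit.

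The members and lists were chosen with earlier results of these data known. Levels were unweighted means over CpGs unless called read-weighted. CpGs were tested where each of the 4 libraries had 10 or more calls, with a logistic model, a likelihood ratio test and the adjustment of Benjamini-Hochberg over the whole table (q below 0.01, pooled difference over 10 points), after the test had been tried on simulated data. Library means were compared by two-sided exact permutation tests. Genes were those of GENCODE vM1, and matches in mm9 were found with blastn 2.17.0+ (word size 28, at most 50 matches per sequence) from samtools 1.23.1 extracts. The genome file is not soft-masked, so masked shares were not used. Computation used Python 3.11.15, numpy 2.4.6 and scipy 1.17.1. The satellite and ribosomal groups are the sequence families of the loci with tandem periods and with the most members, a grouping chosen after seeing the data. Genes were named for the 20 loci with the most calls, loci of at least 10 members, and the 3 largest separated falls and rises of oxBS level at loci of at least 2 members. Any others were chosen after their values were seen. BS and oxBS libraries of one shRNA and number were taken to share their DNA. The labels do not state this, nor what shScr and shTet3 libraries of one number share.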

Additional observations from a re-analysis of the deposited data

Results flagged for a closer look

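At 1 satellite locus on chromosome 9 (chr9:3036038-3036096, 4 members, in Gm16869) BS and oxBS differed in opposite directions in the shRNAs. BS lay below oxBS in shScr in every pairing of the libraries (difference −2.14 percentage points) and above it in shTet3 (+0.456 points). This locus was picked from the 108 after the values were seen. Of the 108 loci, 7 had both BS libraries below both oxBS libraries in shScr and 7 above, and in shTet3 8 and 10. The same was not counted over all loci. The difference between shRNAs was not tested. The groups held 2 libraries each, too few for a search for single outlying samples.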

How the results depend on the processing

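Of the alternatives tried, 191 left the result on its side, 32 moved a count by more than 1.5 times and 20 reversed the sign of a small or weighted difference. The 191 include a replicate block for each difference of library means, which cannot change it and so shows nothing about its stability. Members called lower in oxBS numbered 0 with the F test, 0 at a difference over 25 points and 3 with calls scaled down to the median coverage, and in BS 0, 1, 2 and, among the 500 highest CpGs, 14. The single BS call in shTet3 became 0 under Fisher's exact test, the F test, the 25-point limit and the scaled calls, and 1 CpG had BS below oxBS in shScr among the 1000 highest. The cause of these changes was not tested.

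Leaving out each library in turn gave 30 to 54 members called lower and 0 to 7 higher in oxBS, and 26 to 48 and 0 to 6 in BS. Members with BS below oxBS numbered 2 to 27 in shScr and 0 to 2 in shTet3, and with BS above 0 to 30 and 0 to 3. The shares of all CpGs called in these settings were not counted. Leaving out 1 library also leaves the replicates unequal between the groups, so that differences between replicates enter. The difference in share of calls ranged from −0.956 to 1.84 points in oxBS and −0.857 to 1.89 in BS. BS minus oxBS of the members in shTet3 ranged from −0.256 to 0.179. The read-weighted BS minus oxBS of all autosomal CpGs ranged from −3.53 to 1.78 in shScr and −0.548 to 1.34 in shTet3.

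The read-weighted difference of shTet3 from shScr over the members was 1.70 in oxBS and 3.55 in BS. BS minus oxBS of the members became 0.149 in shScr as a mean over loci, and in shTet3 0.284 read-weighted, 0.131 as a mean over loci, 0.0199 without the largest locus and 0.0387 when ranked by the smallest coverage. The unweighted BS minus oxBS of all autosomal CpGs was 0.365 in shScr. With a replicate block, as a paired fit, the members called lower remained 29 in oxBS and 26 in BS, and no other count of called members changed. The mean differences of −2.07 and −1.999 were not refitted, since such a block cannot change them when each group holds both replicates. The BS and oxBS libraries of one DNA sample deviated together over the members (correlation of replicate differences 0.872 in shScr and 0.684 in shTet3). Over all CpGs this correlation was 0.429 in shScr and 0.218 in shTet3. For shScr and shTet3 libraries of one number this was −0.0241 in oxBS and −0.0155 in BS over all CpGs, but 0.338 and 0.392 over the members, and 0.586 and 0.717 for their log2 coverage. Sets within sequence groups, the set without the satellite loci, call counts without the largest locus and the read-weighted member level without each library (−6.04 to 9.43 points in oxBS, −2.09 to 9.20 in BS) were added after seeing the data. The counts of called members depended on their depth. With calls scaled down to the median coverage, 3 were called lower against 29 in oxBS, and 2 against 26 in BS. All comparisons rest on 2 libraries per group.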
